A study of Mus musculus with 8 samples.

Results

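This report describes 31 mouse genes of glycolysis and of the response to low oxygen, chosen as a list of gene symbols. All 31 symbols were found, under 32 of the 21935 gene identifiers in the deposited expression table, since Aldoa has 2 identifiers. Of the 32 identifiers, 30 passed the filter on low counts and were tested among 12670 genes. Aldoc and Egln3 did not pass.

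The cells were wild-type mouse bone marrow mesenchymal stem cells (BMSCs), labelled as a cell line under osteogenic differentiation. Per the labels' protocols, scaffolds of polycaprolactone (PCL), a biodegradable polymer, were immersed in medium to make an extract. Per the labels, the 6 peptide samples came from scaffolds carrying SS31, E7, or SS31 together with E7, taken at day 3 and day 7, and the 2 control samples came from PCL alone on the same days. SS31 binds the inner membrane of mitochondria, and E7 was selected for binding mesenchymal stem cells. The deposited table holds 4 libraries, named PCL-R, PCL-B, PCL-R-B and PCL. The labels name no addition to PCL other than peptides, so the 3 libraries with an addition in their name were taken as PCL with peptide and the other as PCL alone. No source says what R and B stand for or which day a library comes from, so no peptide and no day is assigned to any of them, and a difference of day cannot be told apart from a difference of scaffold.

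Glycolysis splits glucose into pyruvate in the cytosol and yields ATP without oxygen. When oxygen is low, the prolyl hydroxylases that mark hypoxia-inducible factor (HIF) for destruction are inhibited, and HIF then raises many glycolytic genes together with genes of vessel growth, acid balance and adaptation of mitochondria. Marrow stromal cells are known for a high rate of glycolysis. Many HIF targets also respond to other signals, among them glucocorticoids and amino acid shortage for Ddit4.

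HIF binds the core letters ACGTG or GCGTG, which read CACGT or CACGC on the opposite strand. To show these letters in the members that differed most between the groups among those with a window in the RefSeq table, the 250 bases upstream of the RefSeq start (GRCm38.p6, the assembly also called mm10) are given for 3 members that were higher in the peptide-scaffold libraries and 1 that was lower, each in the direction of its gene. The capitals mark the core on either strand. The positions are chr4:43506776-43507025 on the plus strand for Car9, chr9:121857797-121858046 on the minus strand for Higd1a, chr13:6648772-6649021 on the minus strand for Pfkp and chr6:82774455-82774704 on the minus strand for Hk2.
Car9: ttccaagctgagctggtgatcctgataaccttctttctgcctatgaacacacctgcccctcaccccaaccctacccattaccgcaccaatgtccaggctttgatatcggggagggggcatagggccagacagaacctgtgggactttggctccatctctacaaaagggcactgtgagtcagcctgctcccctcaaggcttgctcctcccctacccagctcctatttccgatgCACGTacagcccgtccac
Higd1a: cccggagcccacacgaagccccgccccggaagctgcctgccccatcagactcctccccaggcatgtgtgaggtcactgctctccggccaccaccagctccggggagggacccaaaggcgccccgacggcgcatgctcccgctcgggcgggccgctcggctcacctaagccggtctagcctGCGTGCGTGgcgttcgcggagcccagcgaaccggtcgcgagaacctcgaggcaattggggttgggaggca
Pfkp: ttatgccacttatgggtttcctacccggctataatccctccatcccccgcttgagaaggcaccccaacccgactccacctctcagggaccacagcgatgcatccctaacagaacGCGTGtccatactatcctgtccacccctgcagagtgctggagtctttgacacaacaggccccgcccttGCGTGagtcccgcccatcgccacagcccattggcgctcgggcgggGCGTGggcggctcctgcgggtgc
Hk2: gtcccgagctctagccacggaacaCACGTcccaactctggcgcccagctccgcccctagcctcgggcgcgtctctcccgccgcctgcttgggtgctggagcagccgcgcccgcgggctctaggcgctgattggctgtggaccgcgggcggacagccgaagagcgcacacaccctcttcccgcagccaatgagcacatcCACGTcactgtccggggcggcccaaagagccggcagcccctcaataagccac
With overlapping matches counted once, Car9 and Higd1a had 1 match each, Pfkp had 3 and Hk2 had 2, so the letters were present in members on either side of 0. Of the 31 members, 30 had a window, all but Ndrg1, with 48 start sites among them. At least 1 match stood in 36 of these 48 windows (75.0%), against 12679 of 32851 windows in the whole table (38.6%). Every core holds the letters CG, and the windows were not matched for base content. Windows of the same gene can overlap, as for Eno1 and Aldoa, so the 48 are not independent. No test was made of this difference. The RefSeq starts can differ from the deposited gene coordinates. By the deposited coordinates, the whole Higd1a window and the Car9 match lie inside the gene. A match is a description of letters, not a site of binding.

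The 4 libraries held 15922734 to 17816789 counts in the peptide-scaffold group and 14619380 in the PCL library. The PCL-R library stood apart from the other 2 of its group: the SD of the log2 ratio over all genes tested was 0.51 between PCL-R and either of them and 0.41 between PCL-B and PCL-R-B, beside 0.55 to 0.69 against PCL. Most stromal genes were abundant, with Col1a1 at 455 to 500 FPKM in the peptide-scaffold libraries and 227 FPKM in PCL. Of the 12 genes in that list, Nt5e had 1 to 6 counts a library and Lepr 8 to 25. The leukocyte list was split. Of its 10 genes, Ptprc, Adgre1, Itgam, Tyrobp and C1qa had 0 or 1 count in every library, Fcer1g had 1 to 4 and Csf1r 7 to 13, while Lyz2 had 31 to 78 counts, Cd68 81 to 123 and Cd14 206 to 341. The 8 osteoblast genes were split as well. Ibsp, Sp7, Bglap and Bglap2 had 0 to 8 counts in every library and Alpl 4 to 29, while Dmp1 had 21 to 83 counts, Runx2 607 to 832 and Spp1 11630 to 26593. Some marker lists moved with the groups. Their summed level was 307 to 323 CPM (counts scaled to the library size, with TMM factors) against 537 CPM in PCL for 6 adipocyte genes, 752 to 1041 against 1855 CPM for 8 osteoblast genes, mostly Spp1, 281 to 333 against 199 CPM for 4 chondrocyte genes and 5.84 to 9.28 against 2.17 CPM for 6 endothelial genes. The endothelial sum was mostly Tek, at 3.45 to 6.74 against 0.474 CPM, while Emcn had 2 to 3 counts against 8, and Cdh5 and Kdr had 0 to 2 counts in every library. By edgeR, 2 of 6 adipocyte and 1 of 4 osteoblast genes tested were called lower, against 0.379% of all genes tested. Of the chondrocyte and endothelial genes tested, 1 of 3 in each list was called higher, against 0.529%. The adipocyte sum was mostly Fabp4, at 235 to 241 against 412 CPM, while Cebpa had a log2 fold change of 0.14. The chondrocyte sum was mostly Sox9, at 194 to 252 against 159.5 CPM and not called, and Acan had 0 or 1 count. Summed stromal genes stood at 15634 to 16425 against 13243 CPM, with 2 of 11 called higher, against 0.529% of all genes tested. Cxcl12 and Cd44 lay below PCL in all 3 peptide-scaffold libraries, with log2 fold changes of -0.26 and -0.30. Leukocyte genes stood at 22.2 to 33.9 against 28.3 CPM with 0 of 4 called by any tool, and 4 erythroid genes stood at 0.184 to 0.561 against 0.0677 CPM, too low to test. The mitochondrially encoded share of counts was 2.46% to 3.14% against 3.89% in PCL. The part of these differences in the results on the members was not tested, and in bulk RNA fewer cells of a type cannot be told apart from less RNA per cell.

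The peptide-scaffold libraries were tested against the PCL library with edgeR's quasi-likelihood test over all genes, with Benjamini-Hochberg adjusted p-values and a threshold of 0.05. With 3 libraries against 1, the spread came from the 3, which carry different additions, and the PCL library was assumed to vary like them. Nothing says that the libraries came from separate cultures, so the p-values measure the spread between these libraries, which may be technical. Each SE below was derived from the test's F value. Single libraries were set against PCL by their ratio, with no test, and the 3 ratios share the PCL library.

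Among the members, Ndrg1 was the gene that passed the test, and it was higher in the peptide-scaffold libraries. Of the 30 tested identifiers, 1 was called higher and 0 were called lower, against 0.529% of all genes tested called higher and 0.379% called lower. The median log2 fold change was 0.04 for the members and 0.01 for all genes tested. By step, it was 0.02 for 11 identifiers of glucose entry and upper glycolysis, -0.20 for 9 of lower glycolysis and pyruvate fate, and 0.35 for 10 of the hypoxia response. At an unadjusted p under 0.05, 6 of 30 members passed, Ndrg1, Car9, Higd1a, Pfkp, Ddit4 and Hk2, against 13.9% of all genes tested; Hk2 was the one on the lower side. DESeq2 called 2 members higher and 0 lower, against 2.15% and 0.829% of all genes tested. On log2(FPKM + 1) limma called 1 member higher, against 0.308% of all genes tested, and on log2(FPKM + 0.1) it called 2, against 0.56%. It called 0 members lower with either pseudocount, against 0.26% of all genes tested.

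**Figure D1:**
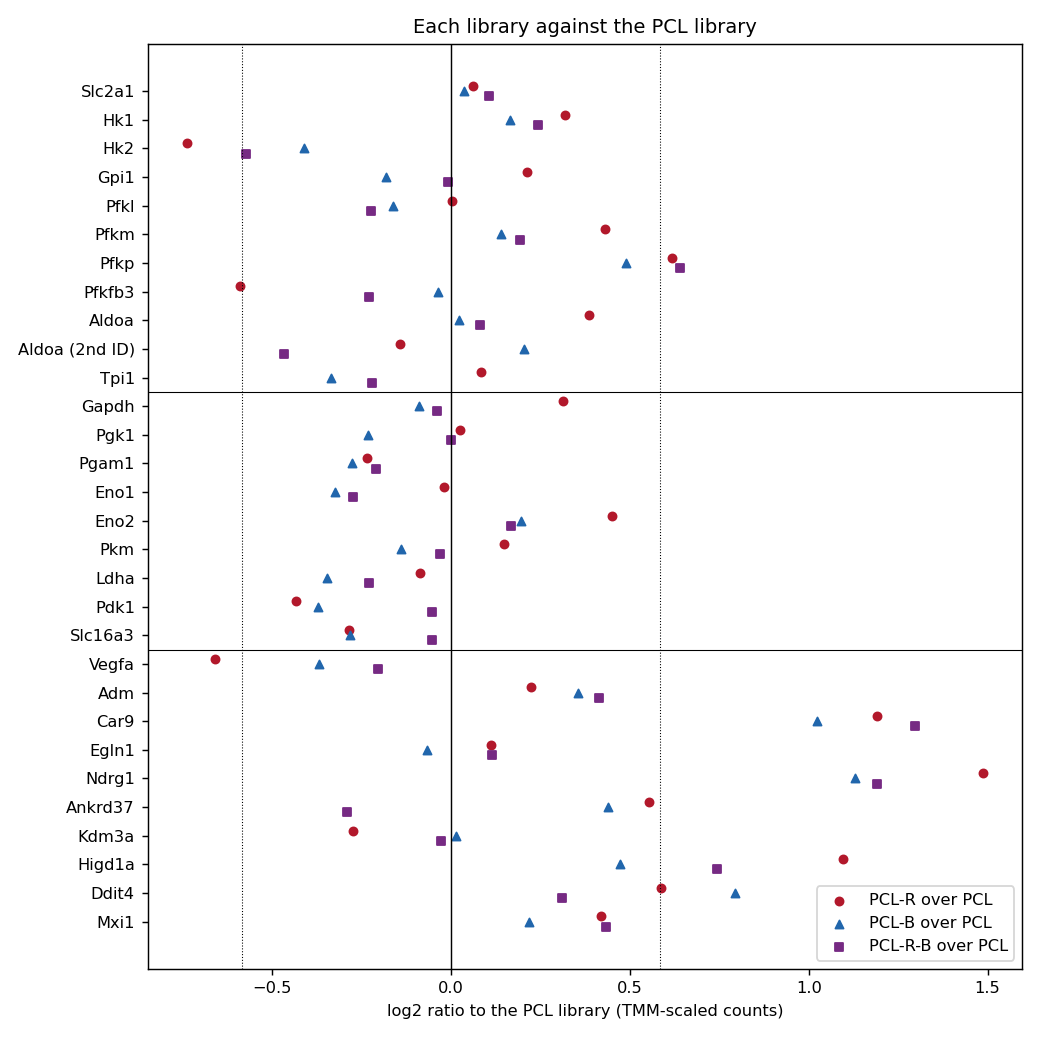
Log2 ratio of each peptide-scaffold library to the PCL library (x axis, TMM-scaled counts) for the 30 tested member identifiers, ordered by pathway, with dotted lines at 1.5-fold. Ndrg1 and Car9 lie past 1.5-fold in all 3 libraries, and most glycolytic enzymes lie within 1.5-fold.

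Ndrg1 (chromosome 15, 66929318 to 66969640, mm10) encodes a stress-responsive protein long used as a marker of hypoxia. It had 278 CPM in PCL-R, 217 in PCL-B and 227 in PCL-R-B, against 99.3 CPM in PCL. All 3 peptide-scaffold libraries lay more than 2-fold above PCL. The fitted log2 fold change was 1.28 ± 0.20 (SE), with an edgeR adjusted p of 0.0261.

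Car9 (chromosome 4, 43506966 to 43513729) encodes a carbonic anhydrase at the cell surface that helps export acid and is a classic HIF target. It had 17.8 CPM in PCL-R, 15.9 in PCL-B and 19.2 in PCL-R-B, against 7.78 CPM in PCL. All 3 libraries lay above PCL by about the same ratio, 2.03 to 2.46. The log2 fold change was 1.18 ± 0.24 (SE) and the edgeR adjusted p was 0.0606, which misses the threshold. It was below the threshold in 6 of 10 alternative settings, where the adjusted p ranged between 0.00742 and 0.0669 over all 10.

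Higd1a (chromosome 9, 121848563 to 121858362) encodes a small protein of the inner mitochondrial membrane that is induced by hypoxia. It had 103 CPM in PCL-R, 66.7 in PCL-B and 80.5 in PCL-R-B, against 48.0 CPM in PCL. All 3 libraries lay above PCL, with PCL-R highest and PCL-B lowest. The log2 fold change was 0.79 ± 0.24 (SE), with an edgeR adjusted p of 0.186.

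Ddit4 (chromosome 10, 59949669 to 59951834) encodes an inhibitor of the growth kinase complex mTORC1. It had 170 CPM in PCL-R, 196 in PCL-B and 140 in PCL-R-B, against 113 CPM in PCL. The PCL-B library was highest here, unlike for Ndrg1, Car9 and Higd1a. Its fitted log2 fold change was 0.58 ± 0.21 (SE), with an edgeR adjusted p of 0.259.

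**Figure D2:**
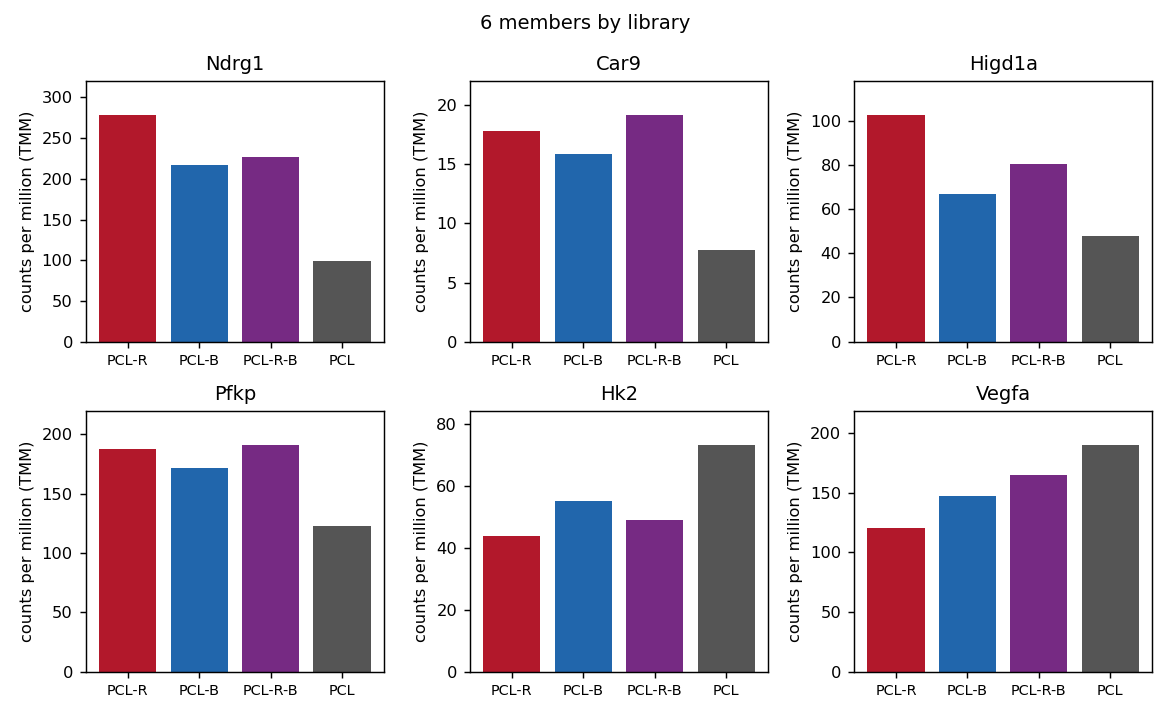
CPM after TMM scaling (y axis, from 0) in each of the 4 libraries for 6 members. Ndrg1, Car9, Higd1a and Pfkp are above PCL in all 3 peptide-scaffold libraries, and Hk2 and Vegfa are below PCL in all 3; of these 6, Ndrg1 passed the test.

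Adm and Mxi1 also lay above PCL in all 3 libraries, by less. Adm, which encodes the vasodilator peptide adrenomedullin, had 146 CPM in PCL-R, 160 in PCL-B and 166 in PCL-R-B, against 125 CPM in PCL. Mxi1, which encodes an antagonist of Myc, had 40.0 CPM in PCL-R, 34.8 in PCL-B and 40.4 in PCL-R-B, against 29.9 CPM in PCL. Their edgeR adjusted p-values were 0.424 and 0.440.

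Vegfa (chromosome 17, 46016993 to 46032369), the main growth factor for blood vessels, lay on the other side of PCL from Ndrg1 and Car9. It had 120 CPM in PCL-R, 147 in PCL-B and 165 in PCL-R-B, against 190 CPM in PCL. All 3 libraries lay below PCL, and PCL-R was lowest. Its fitted log2 fold change was -0.40 ± 0.19 (SE), with an edgeR adjusted p of 0.401.

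Egln1, the main prolyl hydroxylase that marks HIF, had 121 CPM in PCL-R, 107 in PCL-B and 121 in PCL-R-B, against 112 CPM in PCL, which lay between them. Egln3, a hypoxia-induced prolyl hydroxylase, had 4 counts in PCL-R, 3 in PCL-B and 4 in PCL-R-B, against 0 in PCL, so it was close to the limit of detection everywhere and no fold is given. Kdm3a, a HIF-induced histone demethylase, had 69.3 CPM in PCL-R, 84.6 in PCL-B and 82.1 in PCL-R-B, against 83.8 CPM in PCL. Ankrd37, a hypoxia-induced ankyrin repeat gene, had 57 counts in PCL-R, 58 in PCL-B and 31 in PCL-R-B, against 35 in PCL, and its groups overlapped. Summed over the 11 hypoxia members, the level was 1048 ± 18.4 CPM (SD, n = 3) in the peptide-scaffold libraries and 811 CPM in PCL. That sum is set mostly by Ndrg1, Ddit4, Adm, Vegfa and Egln1. In CPM, Ndrg1 differed most, with a mean of 241 in the peptide-scaffold libraries against 99.3 in PCL. Ddit4 had a mean of 169 against 113 CPM, and Vegfa went the other way, at 144 against 190 CPM. The difference in the sum is therefore mostly that of Ndrg1 and is not shared by the whole list.

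Of the enzymes of upper glycolysis, Pfkp and Hk2 differed most, in opposite directions. Pfkp (chromosome 13, 6579768 to 6648777), the platelet-type phosphofructokinase of the committed step, had 188 CPM in PCL-R, 172 in PCL-B and 191 in PCL-R-B, against 122 CPM in PCL. All 3 libraries lay above PCL. The log2 fold change was 0.58 ± 0.17 (SE), with an edgeR adjusted p of 0.155.

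Hk2 (chromosome 6, 82725025 to 82774454), the inducible hexokinase that binds mitochondria, had 43.9 CPM in PCL-R, 55.0 in PCL-B and 49.1 in PCL-R-B, against 73.2 CPM in PCL. All 3 libraries lay below PCL. The log2 fold change was -0.57 ± 0.18 (SE), with an edgeR adjusted p of 0.193. Its constitutive relative Hk1 had 387 CPM in PCL-R, 348 in PCL-B and 367 in PCL-R-B, against 310 CPM in PCL, so it stood on the other side of PCL from Hk2. The log2 fold change of Hk1 was 0.24, with an edgeR adjusted p of 0.558.

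The 3 phosphofructokinase genes did not share a direction. The muscle form Pfkm had 121 CPM in PCL-R, 99.1 in PCL-B and 103 in PCL-R-B, against 90.0 CPM in PCL. The liver form Pfkl had 382 CPM in PCL-R, 341 in PCL-B and 326 in PCL-R-B, against 381 CPM in PCL. Pfkm lay above PCL in all 3 libraries, and Pfkl was level with PCL in 1 of them and below it in the other 2. Pfkfb3, which makes the phosphofructokinase activator fructose 2,6-bisphosphate, had 13.3 CPM in PCL-R, 19.5 in PCL-B and 17.1 in PCL-R-B, against 20.03 CPM in PCL. PCL-R was the library past 1.5-fold here.

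Slc2a1, the glucose transporter GLUT1, had 198 CPM in PCL-R, 194 in PCL-B and 204 in PCL-R-B, against 190 CPM in PCL, a log2 fold change of 0.07 ± 0.16 (SE). Gpi1, which converts glucose 6-phosphate to fructose 6-phosphate, had 743 CPM in PCL-R, 566 in PCL-B and 638 in PCL-R-B, against 642 CPM in PCL. The aldolase Aldoa, the enzyme that splits the sugar, had a log2 fold change of 0.17, and Gpi1 had 0.02. The second Aldoa identifier lies upstream on the same strand (chromosome 7, 126800790 to 126809108) and had 29 to 52 counts a library, against 18262 or more for the first. Aldoc, the brain-type aldolase, had 3 to 6 counts a library. Tpi1, triosephosphate isomerase, had 960 CPM in PCL-R, 718 in PCL-B and 776 in PCL-R-B, against 906 CPM in PCL, a log2 fold change of -0.15.

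Of the 9 tested genes of lower glycolysis and pyruvate fate, 0 were called by edgeR, 0 had an unadjusted p under 0.05, and 0 were called by DESeq2 or limma. Pgam1, phosphoglycerate mutase, had 596 CPM in PCL-R, 579 in PCL-B and 607 in PCL-R-B, against 702 CPM in PCL. Ldha, which turns pyruvate into lactate, had 1315 CPM in PCL-R, 1098 in PCL-B and 1190 in PCL-R-B, against 1396 CPM in PCL. Both genes lay below PCL in all 3 libraries, by log2 fold changes of -0.24 and -0.22, with edgeR adjusted p-values of 0.545 and 0.620.

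Eno1, the main enolase, had 1774 CPM in PCL-R, 1436 in PCL-B and 1486 in PCL-R-B, against 1797 CPM in PCL. No source used here says how reads shared with its retrotransposed copy Eno1b were counted. Summed with Eno1b, the level was 2298 CPM in PCL-R, 1832 in PCL-B and 1931 in PCL-R-B, against 2255 CPM in PCL, so PCL-R then lay above PCL. The neuronal enolase Eno2 lay above PCL in all 3 libraries, with 124 CPM in PCL-R, 104 in PCL-B and 102 in PCL-R-B, against 90.9 CPM in PCL.

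Pgk1, phosphoglycerate kinase, and Pkm, pyruvate kinase, had log2 fold changes of -0.06 and -0.003, and PCL lay within the range of the other libraries for both genes. Pgk1 had 1782 CPM in PCL-R, 1491 in PCL-B and 1752 in PCL-R-B, against 1752 CPM in PCL. Pkm had 2217 CPM in PCL-R, 1818 in PCL-B and 1959 in PCL-R-B, against 2003 CPM in PCL. For both, PCL-B was the lowest library. Gapdh, the enzyme widely used as a reference gene, had 27.3 FPKM in PCL-R, 21.5 in PCL-B and 22.2 in PCL-R-B, against 22.9 FPKM in PCL. On this scale, which is per length, it stood more than 10-fold below its pathway neighbours Tpi1 and Pgk1. Gapdh has many processed copies in the mouse genome, so its level is given as uncertain; the part of reads shared with copies was not tested.

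Pdk1, the kinase that shuts off pyruvate dehydrogenase under hypoxia, had 91.5 CPM in PCL-R, 95.3 in PCL-B and 119 in PCL-R-B, against 123 CPM in PCL. All 3 libraries lay below PCL, PCL-R-B narrowly. Slc16a3, the lactate exporter MCT4, had 19 counts in PCL-R, 21 in PCL-B and 22 in PCL-R-B, against 21 in PCL. Scaled to library size, this was 1.16 CPM in PCL-R, 1.17 in PCL-B and 1.37 in PCL-R-B, against 1.42 CPM in PCL. All 3 libraries thus lay below PCL, on too few counts to tell them apart from it.

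Per length, the members spanned more than 3 orders of magnitude. Pgk1 was highest, at 771 FPKM in PCL-R, 670 in PCL-B and 787 in PCL-R-B, against 789 FPKM in PCL. Aldoa, Pkm, Ldha, Pgam1, Eno1 and Tpi1 followed at 263 to 538 FPKM, with neighbours in this order overlapping between libraries. Adm and Ddit4 were the hypoxia genes with the highest levels, at 65.1 to 113 FPKM. Car9 stood at 6.94 to 8.40 FPKM in the peptide-scaffold libraries and 3.41 FPKM in PCL.

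**Figure D3:**
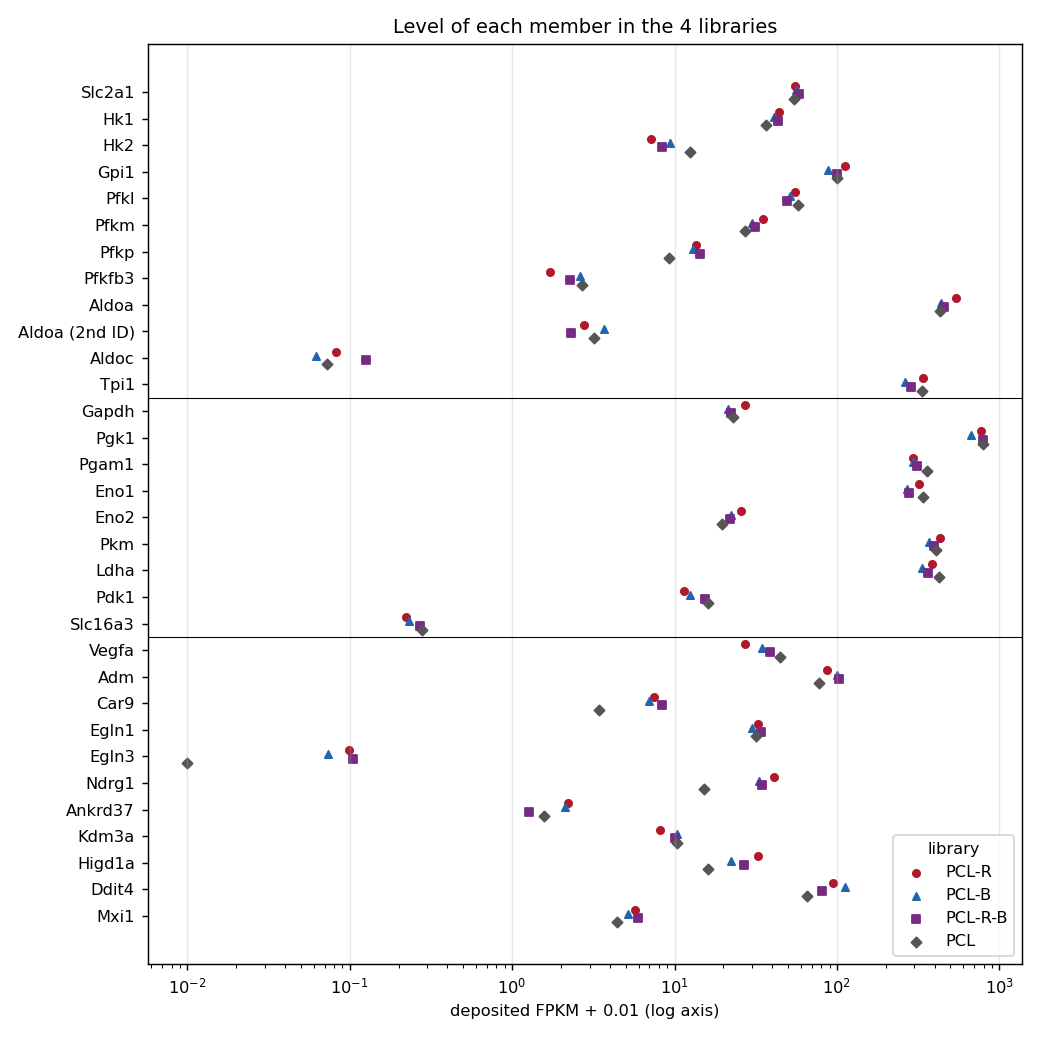
Deposited FPKM plus 0.01 on a log axis (x) for all 32 member identifiers (y) in the 4 libraries. The enzymes Pgk1, Aldoa, Pkm and Ldha lie at 335 to 789 FPKM in every library, and Aldoc, Egln3 and Slc16a3 lie below 1 FPKM.

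Summed over the 20 glycolytic genes, the level was 12668 CPM in PCL-R, 10482 in PCL-B and 11289 in PCL-R-B (mean 11480 ± 1105, SD, n = 3), against 11931 CPM in PCL, which lay between them. All 3 peptide-scaffold libraries lay above PCL for 6 of the 20 tested glycolytic identifiers and below it for 7, and for 6 and 1 of the 10 tested hypoxia genes. Over all 30 identifiers, 12 lay above in all 3, against 31.5% of all genes tested, and 8 lay below in all 3, against 30.6%.

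PCL-R was the highest of the 3 for 15 of 30 members (50%), against 40.7% of all genes tested, and PCL-B was the lowest for 18 of 30 (60%), against 28.7%. PCL-B was the highest for 5 of 30 (16.7%), against 28.3%. Among the 20 glycolytic identifiers, PCL-R was highest for 12, including Aldoa, Gapdh, Pgk1, Pkm, Ldha and Tpi1, and PCL-B was lowest for 13. Aldoa showed this order, with 1613 CPM in PCL-R, 1256 in PCL-B and 1308 in PCL-R-B, against 1236 CPM in PCL. By name, both libraries with R lay above both others for 11 of 30 members (36.7%), against 16% of all genes tested, and below both for 4 of 30 (13.3%), against 14.7%. Both libraries with B lay above both others for 1 of 30 members, Adm, against 17.8% of all genes tested, and below both for 7 of 30, against 18.2%. The 11 members with both R libraries above include Pgk1, a near tie at 1752.3 CPM in PCL-R-B and 1751.7 CPM in PCL. They also include Ndrg1, Car9, Higd1a and Pfkp, for which PCL-B lay above PCL as well. These are orders of 4 single libraries, with no test, and members of 1 pathway are not independent.

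By ratio to PCL, 5 members lay past 1.5-fold upward in PCL-R, 3 in PCL-B and 4 in PCL-R-B, against 12.8%, 9.94% and 10.2% of all genes tested. Downward, 3 lay past 1.5-fold in PCL-R, Hk2, Pfkfb3 and Vegfa, and 0 in each of PCL-B and PCL-R-B, against 11.1%, 5.96% and 6.2%. Ndrg1 and Car9 were past 1.5-fold upward in every peptide-scaffold library. The precision of a ratio followed the counts. For Ndrg1 in PCL-B against PCL, the ratio was 2.19, with a 95% exact binomial interval of 2.06 to 2.33. For Car9 in PCL-R-B the interval was 1.98 to 3.08, and for Slc16a3 in PCL-R it was 0.417 to 1.60. Such intervals cover counting error only.

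Leaving out the PCL-R library changed the calls. With PCL-B and PCL-R-B alone against PCL, 5 members were called higher by edgeR, Ndrg1, Car9, Higd1a, Pfkp and Adm, and 2 were called lower, Hk2 and Eno1. The background was also larger, with 754 of 12670 genes called higher (5.95%) and 589 called lower (4.65%). The log2 fold changes there were 0.61 for Higd1a, 0.56 for Pfkp and -0.49 for Hk2, with edgeR adjusted p-values of 0.0270, 0.0123 and 0.0298.

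The genes around the members were described from lists of related pathways. Of 12 tested genes of the HIF pathway, 0 were called by edgeR, DESeq2 called 2 higher and 1 lower, against 2.15% and 0.829% of all genes tested, and limma called 0. At an unadjusted p under 0.05, 3 were higher and 1 lower, against 8.56% and 5.36% of all genes tested. Epas1, which encodes HIF-2 alpha, had 81.2 CPM in PCL-R, 81.6 in PCL-B and 74.0 in PCL-R-B, against 48.2 CPM in PCL, and Hif3a, a further HIF alpha subunit, had 43.0 CPM in PCL-R, 46.0 in PCL-B and 43.9 in PCL-R-B, against 26.6 CPM in PCL. Arnt2, a partner subunit of HIF, had 19.3 CPM in PCL-R, 20.8 in PCL-B and 18.2 in PCL-R-B, against 34.6 CPM in PCL. The edgeR adjusted p-values were 0.103, 0.103 and 0.0727. Arnt, another partner subunit and the more abundant of the pair, had 89.3 CPM in PCL-R, 102 in PCL-B and 103 in PCL-R-B, against 83.2 CPM in PCL. The log2 fold change of Arnt was 0.24, with an edgeR adjusted p of 0.586. Hif1a, the most widely acting HIF alpha subunit, had a log2 fold change of -0.18 ± 0.20 (SE).

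Other genes known to be induced by hypoxia lay on either side of 0. Of 34 tested, edgeR called 0 higher and 1 lower, against 0.529% and 0.379% of all genes tested. Their median log2 fold change was 0.01. At an unadjusted p under 0.05, 9 were higher and 5 lower, against 8.56% and 5.36% of all genes tested. DESeq2 called 3 higher and 2 lower, against 2.15% and 0.829%, and limma called 0. The gene called lower was Angptl4, a secreted inhibitor of lipoprotein lipase, with 108 CPM in PCL-R, 162 in PCL-B and 153 in PCL-R-B, against 362 CPM in PCL and an edgeR adjusted p of 0.0232. Angptl4 is also a target of the adipocyte regulator Pparg, and the adipocyte genes Fabp4 and Lpl were called lower as well, with log2 fold changes of -0.79 and -1.19; the part of adipocyte-like cells in the value of Angptl4 was not tested. Nos2, Stc2 and Igfbp3 had larger fitted changes on 2 to 60 counts a library and were not called. Nos2 was higher, with a log2 fold change of 2.13, and Stc2 and Igfbp3 were lower, at -2.12 and -2.18.

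Among 13 other tested glycolytic genes, 12 of pyruvate dehydrogenase control and gluconeogenesis and 8 of the pentose phosphate pathway, 0 were called by edgeR, DESeq2 or limma. At an unadjusted p under 0.05, 1 and 2 of the first list were higher and lower, 1 and 1 of the second, and 0 and 2 of the third, against 8.56% and 5.36% of all genes tested. The pyruvate and lactate transporter Slc16a1 had 24.2 CPM in PCL-R, 35.8 in PCL-B and 33.3 in PCL-R-B, against 54.3 CPM in PCL, with an edgeR adjusted p of 0.140. In the pentose phosphate pathway, which makes NADPH, the median log2 fold change was -0.27, and Pgd and G6pdx lay below PCL in all 3 libraries. Their log2 fold changes were -0.50 and -0.43, with edgeR adjusted p-values of 0.187 and 0.247. Pdk2 stood at 0.56, Pdha1 at -0.40, Pcx at -0.35, Pgls at -0.40, Pgam2 at 0.71 and Gapdhs, with 2 to 10 counts a library, at -0.65 on the same log2 scale.

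Ddit4 also responds to glucocorticoids and to ATF4, so both lists were described. Of 8 tested genes induced by glucocorticoids, 1 was called higher and 0 lower by edgeR, against 0.529% and 0.379% of all genes tested. It was Tsc22d3, with 316 CPM in PCL-R, 327 in PCL-B and 330 in PCL-R-B, against 165 CPM in PCL. Its edgeR adjusted p was 0.0331. Per1 and Dusp1 had log2 fold changes of 0.66 and 0.71 and were not called. In that list, 4 genes were higher and 0 lower at an unadjusted p under 0.05, against 8.56% and 5.36% of all genes tested. DESeq2 called 3 higher and 0 lower, against 2.15% and 0.829%. Fkbp5 and Errfi1 stood at 0.37 and 0.34, Zbtb16 at 0.07, and Klf9 and Sgk1 at -0.17 and -0.32 on the log2 scale. Klf9 and Sgk1 lay below PCL in all 3 libraries. Of 12 tested targets of the amino acid response factor ATF4, edgeR called 0 higher and 2 lower, against 0.529% and 0.379% of all genes. The 2 were the glutathione-degrading enzyme Chac1 and the cystine transporter Slc7a11, with log2 fold changes of -1.44 and -2.21. Chac1 had 13.4 CPM in PCL-R, 18.2 in PCL-B and 17.9 in PCL-R-B, against 44.8 CPM in PCL. Slc7a11 had 3.92 CPM in PCL-R, 10.3 in PCL-B and 11.7 in PCL-R-B, against 39.99 CPM in PCL, and its level in PCL-R stood apart from the other 2. Slc7a11 was not called by DESeq2 (adjusted p = 0.187) or by limma on log2(FPKM + 1) (adjusted p = 0.0593) or log2(FPKM + 0.1) (adjusted p = 0.113). Over the ATF4 list, 3 genes were higher and 4 lower at an unadjusted p under 0.05, against 8.56% and 5.36% of all genes tested. DESeq2 called 1 higher and 2 lower in the ATF4 list, against 2.15% and 0.829%. Ddit3, a stress-induced factor of the same list, was at 0.91 with an edgeR adjusted p of 0.0531. Atf4 itself, counted among the 12, had 327 CPM in PCL-R, 290 in PCL-B and 279 in PCL-R-B, against 476 CPM in PCL. The log2 fold change of Atf4 was -0.67, with an edgeR adjusted p of 0.0979.

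**Figure D4:**
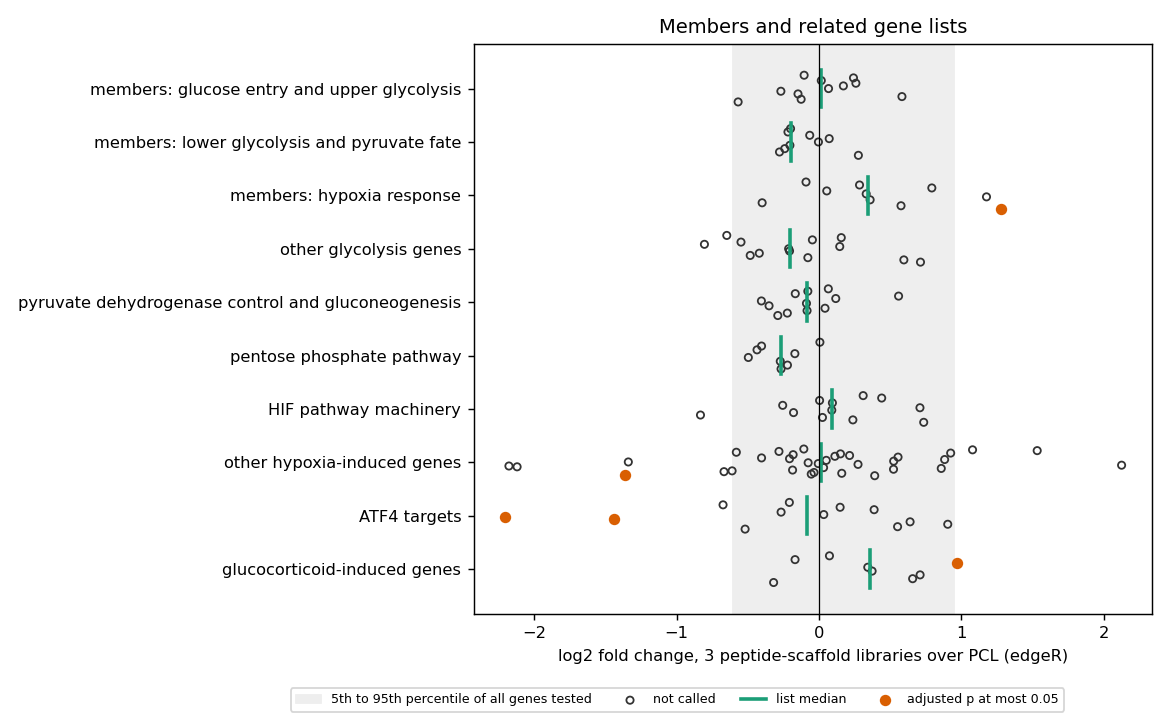
Fitted log2 fold change of the 3 peptide-scaffold libraries over PCL (x axis) for each tested gene of the members and of 7 related lists (y axis), with list medians. Filled points passed the edgeR test, and the shaded band spans -0.61 to 0.95, the 5th to 95th percentile of all genes tested.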

How the data were processed

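RNA was measured by high-throughput sequencing (SMARTER mRNA-Seq libraries, per the labels' protocols). The authors deposited read counts per gene and FPKM values for 4 libraries, per the file headers. The build is mm10, per the submitters' processing notes; no source used here names the aligner, counting program, strand setting or annotation release. The deposited FPKM equals the count divided by gene length and by the column's total count, within 0.00139%. Columns were matched to 2 groups by name, PCL with peptide (3 libraries) and PCL alone (1 library). The protocols mention RNA in triplicate, and whether a library pools several samples is not stated. The deposited mitochondria table repeats 8 columns of such values and was not used. Total counts were 15922734 to 17816789 in the peptide-scaffold libraries and 14619380 in PCL.

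Counts were filtered with filterByExpr, scaled with TMM and tested with edgeR 4.0.16 in R 4.3.3 (12670 genes, Benjamini-Hochberg adjustment over all). Single-library ratios added 0.5 to each count. DESeq2 1.42.0, limma 3.58.1 on log2(FPKM + pseudocount), other scalings and filters, and leaving out each peptide-scaffold library were alternatives. The script was tested on simulated data. Named genes were the tested members and, per related list, the 3 with the largest absolute log2 fold change plus any called. Others, including marker genes, Eno1b, Hif1a, Arnt and Atf4, were chosen after their values were seen. The members and lists were chosen with earlier results of these data known. Promoters were printed for the 3 members with the largest and the 1 with the smallest log2 fold change among those with a window. Promoter windows are RefSeq's, on GRCm38.p6.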

Additional observations from a re-analysis of the deposited data

How the results depend on the processing

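Ndrg1 was called higher in all 10 alternatives, with a log2 fold change of 1.16 to 1.34 and an adjusted p between 5.73e-07 and 0.0404. The count of members called higher, 1, was 2 without the filter on low counts, 2 with DESeq2 and 2 with limma on log2(FPKM + 0.1), Car9 being the addition. Leaving out 1 peptide-scaffold library gave 2 to 5 members called higher and 0 to 2 called lower, the extremes without PCL-R. Such a fit rests on 2 libraries against 1, and the PCL library could not be left out. The counts over all genes, 67 higher and 48 lower, were 195 and 104 without the filter and 273 and 105 with DESeq2. With limma on log2(FPKM + 1), 39 genes were called higher, and leaving out 1 library gave 178 to 754 higher and 123 to 589 lower. The cause was not tested.

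The median of the members, 0.04, lay between -0.04 without PCL-R and 0.09 without PCL-B, so its sign is not fixed. With a 2-fold limit, the members past it were 3 upward and 0 downward in PCL-R, 2 upward in PCL-B and 2 upward in PCL-R-B, against 5.17%, 4.13%, 4.36% and 4.57% of all genes tested. With FPKM + 0.1, 3 lay past 1.5-fold upward in PCL-R, against 9.83%. Of 52 named genes, 5 changed sign somewhere, all near 0 and called in no setting. Gpi1 stood at -0.0134 with limma on log2(FPKM + 1), -0.0136 with log2(FPKM + 0.1), and -0.10 to 0.0968 when 1 library was left out. Leave-out values were -0.0702 to 0.138 for Gapdh, -0.306 to 0.0456 for the second Aldoa identifier, -0.117 to 0.00314 for Pgk1 and -0.0900 to 0.0507 for Pkm, which stood at 0.00105 with upper quartile scaling. Among called related genes, Angptl4 missed the threshold with either limma fit (adjusted p 0.0645 and 0.0511), and Slc7a11 with DESeq2 and either limma fit. No scaling moved the median of all genes by more than 0.1 on the log2 scale. The scalings are built to keep most genes near 0, so this median cannot show whether a scaling is right. No paired analysis was possible because the library columns carry no replicate number. Depth limits the ratios of members with few counts, such as Slc16a3 and Ankrd37.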
